A study of Mus musculus with 10 samples.

Results

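Of the 39 Hox genes of the mouse, 33 were examined in the embryonic neocortex, where the rostral and the caudal end of the tissue were compared on microarrays. Members were all probes whose single gene symbol in the platform annotation names a gene of the Hoxa, Hoxb, Hoxc or Hoxd cluster. This gave 34 probes for 33 genes, out of 21766 probes in all, and 33 of 15063 genes with a probe of 1 symbol. Hoxb3 had more than 1 probe, and the other 6 of the 39 genes are not analysed here. The embryos, aged E11.5, were of the inbred C57 strain or the outbred MF1 stock, and no other allele and no treatment is named for either. A pool combined 3 embryos of a litter, and its rostral and caudal RNA, amplified as cDNA, shared an array under different dyes (Cy3 and Cy5), with a second array for the exchanged dyes. The 10 arrays hold 5 pools, 2 of C57 (4 arrays) and 3 of MF1 (6 arrays).

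Hox genes encode homeodomain transcription factors that give cells their position along the body axis. Genes at one end of a cluster, with low paralogue numbers, are active first and furthest forward, from the hindbrain on, and those with high numbers act in the trunk, limbs and tail. The forebrain is known as a part of the neural tube that forms without Hox expression, where the clusters are held silent by Polycomb proteins. Only ratios of the 2 channels were used here, so a level of expression could not be given for any gene, and a ratio does not show that a gene was expressed. For the same reason the neocortical identity of the tissue could not be checked by levels. The 10 probes for 9 neocortical marker genes, such as Emx2, Pax6 and Lhx2, had a ratio in 98% of all array values. The 34 Hox probes had one in 78.8%, against 81.3% for all probes.

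Every value below is a log2 ratio, caudal over rostral, so that genes with more RNA at the caudal end have positive values. The deposited ratio was read as Cy5 over Cy3, which is likely but not stated, and every sign would turn with the opposite reading. Array medians differed, and values were not centred, so a pool's own median has to be set beside its Hox values. Over all tested probes it was -0.10 and 0.36 in C57 pools 1 and 2, and -0.18, 0.13 and 0.15 in MF1 pools 1, 2 and 3. In bulk tissue, fewer cells of a type and less RNA per cell cannot be told apart.

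Coverage of the Hox probes differed between the C57 and the MF1 arrays, and within MF1 also between arrays of a pool. It was 88.2% and 58.8% in MF1 pool 1 and 55.9% and 82.4% in MF1 pool 3. Over all probes the same arrays had 84% and 67.6%, and 63% and 81.8%, so the difference within these pools was not particular to Hox probes. In MF1 pool 2 both arrays had 55.9%, against 66.3% and 72.8% of all probes. The cause was not tested. On the C57 arrays 97.8% of the Hox values had a ratio, against 94.4% over all probes, and on the MF1 arrays 66.2% against 72.6%. The fewest Hox ratios, 19 of 34 probes, were on 3 of the MF1 arrays, and the array of C57 pool 1 with caudal RNA in Cy5 had all 34. On all 4 C57 arrays 32 of the 34 probes were measured (94.1%, against 84% of all probes). On all 6 MF1 arrays 12 were measured (35.3% against 43%). No deposited Hox value stood at the ceiling of 16.61 that the table uses. The genes measured on the fewest arrays, 5 each, were Hoxa13, Hoxc10, Hoxc13 and Hoxd9, together with the second probe of Hoxb3.

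**Figure D1:**
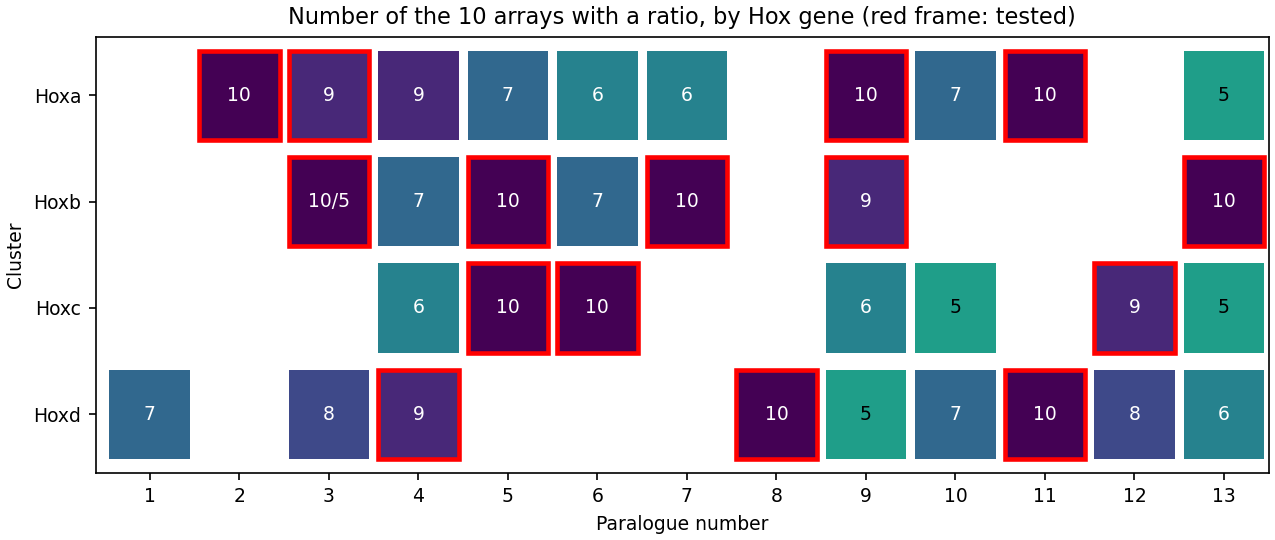
Map of the 4 Hox clusters (rows) by paralogue number (columns), with the number of arrays, out of 10, that gave a ratio for each gene's probe; Hoxb3 has 2 probes, and a blank field is a gene that the mouse clusters lack or that was not analysed. Red frames mark the 15 tested probes, those with both dye orders in 2 or more pools per strain.

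**Figure D2:**
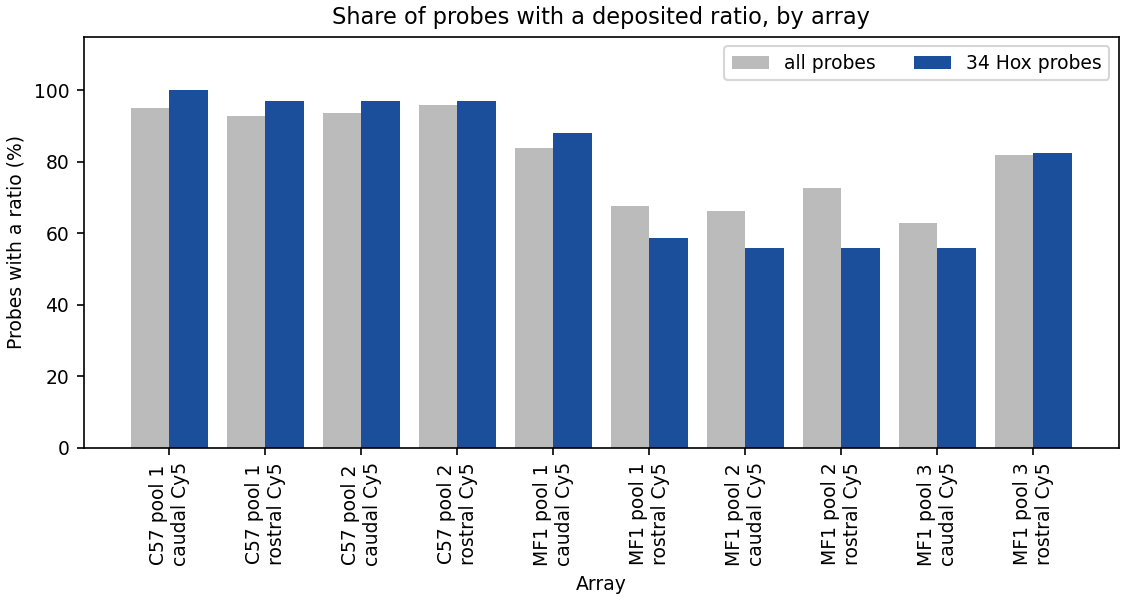
Share of probes with a ratio on each array, in percent, for all probes (grey bars) and the 34 Hox probes (blue bars). The Hox share was 97.1% or 100% on the C57 arrays and fell to 55.9% on 3 MF1 arrays.

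A probe was tested when each strain had 2 or more pools with both dye orders. Of the 34 Hox probes 15 met this (44.1%), against 11855 of 21766 probes in all (54.5%). They comprised 4 of 10 Hoxa, 5 of 8 Hoxb, 3 of 7 Hoxc and 3 of 9 Hoxd probes. By paralogue number, 4 of 10 probes for numbers 1 to 4 were tested, 5 of 9 for numbers 5 to 8 and 6 of 15 for numbers 9 to 13. The filter therefore left out more than it kept at both ends of the clusters, and what follows on tested probes does not describe all Hox genes.

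The promoters of Hoxd8 and Hoxd11 are shown because these 2 genes of the Hoxd cluster had mean ratios of opposite sign. Each kept its sign in every alternative analysis, several of which could not change it. The windows run from 250 bases before to 50 bases after the gene's start, 5′ to 3′ on the plus strand, from RefSeq on GRCm38.p6, and CpG dinucleotides are in capitals. Hoxd11 has 2 annotated starts, of which the first has few CpG dinucleotides and the second many.
Hoxd8 (chr2:74704365-74704664): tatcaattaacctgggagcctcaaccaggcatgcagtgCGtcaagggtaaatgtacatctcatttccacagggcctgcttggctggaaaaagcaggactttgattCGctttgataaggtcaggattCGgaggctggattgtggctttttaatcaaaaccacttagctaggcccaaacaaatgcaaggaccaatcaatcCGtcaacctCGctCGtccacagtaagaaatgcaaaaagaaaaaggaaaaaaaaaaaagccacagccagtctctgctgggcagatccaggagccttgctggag
Hoxd11, first start (chr2:74679308-74679607): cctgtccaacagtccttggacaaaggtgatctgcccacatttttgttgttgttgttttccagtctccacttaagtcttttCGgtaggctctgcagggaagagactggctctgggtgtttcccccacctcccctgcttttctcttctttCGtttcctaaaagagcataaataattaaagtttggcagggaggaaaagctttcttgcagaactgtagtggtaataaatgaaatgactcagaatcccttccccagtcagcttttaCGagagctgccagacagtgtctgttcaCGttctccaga
Hoxd11, second start (chr2:74682073-74682372): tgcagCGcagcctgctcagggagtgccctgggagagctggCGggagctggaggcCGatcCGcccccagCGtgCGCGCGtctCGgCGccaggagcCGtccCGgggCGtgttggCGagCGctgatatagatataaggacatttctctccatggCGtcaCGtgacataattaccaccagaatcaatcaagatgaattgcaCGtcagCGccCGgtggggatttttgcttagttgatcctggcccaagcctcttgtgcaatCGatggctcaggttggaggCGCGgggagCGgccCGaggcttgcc
The Hoxd8 window holds 6 CpG dinucleotides and the Hoxd11 windows 4 and 25. Over the 24 Hox windows in the RefSeq table, which cover 22 genes and 20 of the 33 genes with a probe, the median was 14.5, against 7 over all 32851 windows. The hexamer AGGTCA, a nuclear receptor element searched on both strands, was in 7 of the 24 Hox windows (29.2%, against 16.3% of all windows), Hoxd8 among them. TATAAA, searched the same way, was in 4 (16.7% against 13.6%). The arrays carry no measurement at these windows, and a match is a description only.

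The main question here was whether Hox genes differed between the caudal and the rostral cortex in both strains. The design compares the 2 ends of the tissue and names no gene family. No Hox gene rose or fell by this test. Of the 15 tested probes 8 had a positive and 7 a negative mean ratio, where 8223 of all 11855 tested probes were positive. The Hox means ran from -1.19 for Hoxc12 to 0.47 for Hoxd11. The median was 0.01, against 0.09 over all 11855 tested probes. The median size without regard to sign was 0.26, against 0.15 over all tested probes. By limma 0 of the 15 passed a Benjamini-Hochberg adjusted p of 0.05, as did 0% of all tested probes. The smallest adjusted p of a Hox probe was 0.983. At an unadjusted p under 0.05 there were also 0 Hox probes, against 3.1% of all tested probes. When the 10 arrays were fitted singly with a dye term, 0 passed and 1, Hoxd11, had an unadjusted p under 0.05, against 3.86% of all tested probes. With each array centred on its median, 0 passed and 2, Hoxd8 and Hoxc12, had an unadjusted p under 0.05, against 4.57% of all tested probes. No Hox probe had the same sign in all 5 pools, which 4.89% of the fully measured probes had. In a fit of 5 pools this says only that no difference was detectable at this spread.

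**Figure D3:**
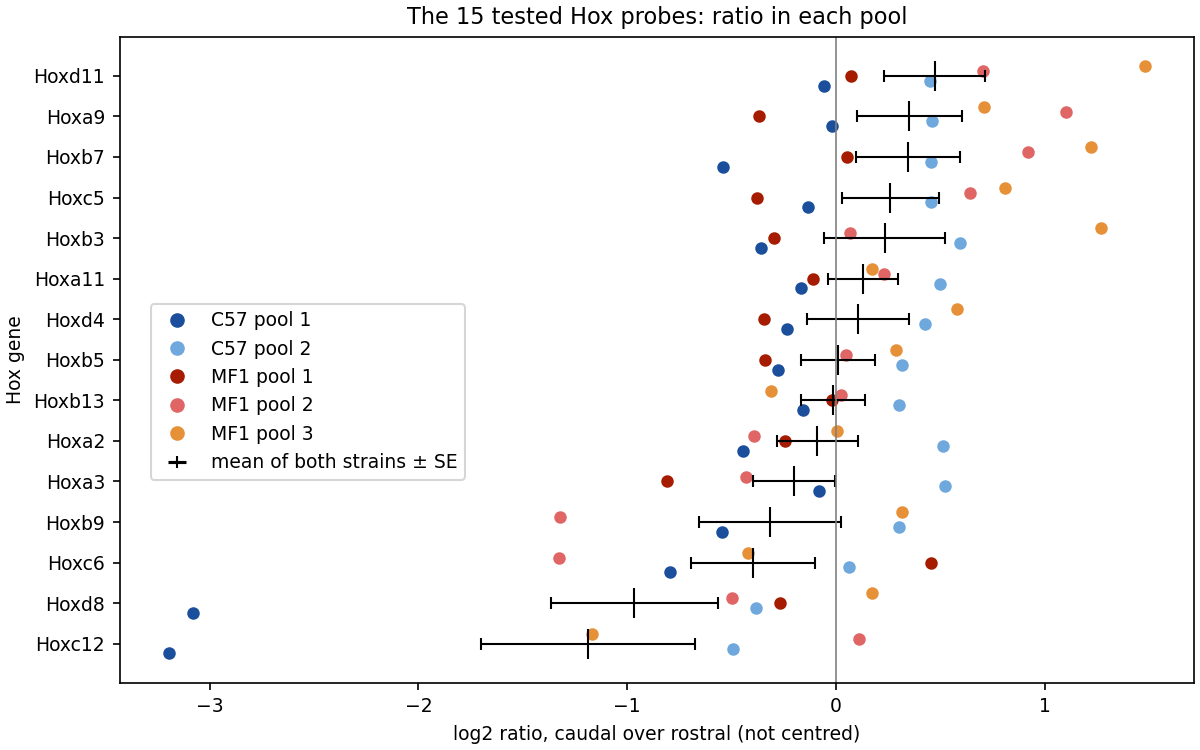
Log2 ratio of caudal over rostral RNA (x axis, not centred) in each pool for the 15 tested Hox probes (rows, ordered by mean), with the mean of both strains and its SE in black. The lowest points are Hoxc12 and Hoxd8 in C57 pool 1, at -3.20 and -3.08, and all others lie between -1.33 and 1.48.

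Among paralogue numbers 1 to 4, the genes of the hindbrain, pharyngeal arches and neck, the 4 tested probes had a median of 0.01. Hoxa2, which patterns the hindbrain and the second pharyngeal arch and is the Hox gene expressed furthest forward, had ratios of -0.45 and 0.51 in C57 and -0.24, -0.39 and 0.01 in MF1. It was negative in 3 pools and positive in the other two, and its mean was -0.09 ± 0.19 (SE, n = 5 pools). Hoxa3, needed for the thymus and parathyroid, had -0.08 and 0.52 in C57 and -0.81 and -0.43 in MF1 pools 1 and 2. Its MF1 values lay below both C57 values, with only 2 pools in each strain, and the share of all probes with such a split was not counted. MF1 minus C57 was -0.84 ± 0.39 (limma adjusted p = 0.999). The Hoxa3 mean of both strains was -0.20 ± 0.20 from 4 pools. Hoxb3, active in the hindbrain and pharyngeal arches, had -0.36 and 0.60 in C57 and -0.30, 0.07 and 1.27 in MF1 at its tested probe. The mean was 0.23 ± 0.29, and it fell to 0.002 without MF1 pool 3 and to -0.01 without C57 pool 2. Hoxd4, which acts in the caudal hindbrain and the neck vertebrae, had -0.24 and 0.42 in C57 and -0.35 and 0.58 in MF1 pools 1 and 3, with a mean of 0.11 ± 0.24. The strains overlapped for Hoxa2, Hoxb3 and Hoxd4.

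Among numbers 5 to 8, genes of the neck and upper trunk, the 5 tested probes had a median of 0.01 and ranged from -0.97 to 0.34. Hoxb5, of the neck and upper trunk, had -0.28 and 0.32 in C57 and -0.34, 0.05 and 0.29 in MF1. These values kept close to the medians of the same pools, and the mean was 0.01 ± 0.18. Hoxc5 had -0.13 and 0.45 in C57 and -0.38, 0.64 and 0.81 in MF1, with a mean of 0.26 ± 0.23. Hoxc6, which marks forelimb levels of the spinal cord, had -0.79 and 0.06 in C57 and 0.45, -1.33 and -0.42 in MF1. No side was common to a strain, and the mean was -0.40 ± 0.30, or -0.17 without MF1 pool 2, -0.18 without C57 pool 1 and -0.61 without C57 pool 2. Hoxb7, a trunk gene, had -0.54 and 0.46 in C57 and 0.05, 0.92 and 1.22 in MF1, with a mean of 0.34 ± 0.25. It was positive in each MF1 pool but opposite in the C57 pools, and its mean ran from 0.09 without C57 pool 2 to 0.59 without C57 pool 1.

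Hoxd8, also of the trunk, had the lowest pool value of this group. Its ratio was -3.08 in C57 pool 1, -0.38 in C57 pool 2 and -0.27, -0.50 and 0.17 in the MF1 pools. A single pool thus stood far below the other 4. The mean of both strains was -0.97 ± 0.40 (SE, n = 5 pools; limma adjusted p = 0.983), and it was -0.29 without C57 pool 1 and -1.64 without C57 pool 2. In C57 pool 1 both arrays were low, at -2.98 with caudal RNA in Cy5 and -3.18 with rostral RNA in Cy5. In C57 pool 2 the same 2 dye orders gave 1.41 and -2.18, so the low mean there came from arrays that disagreed. The MF1 arrays lay between -0.64 and 0.60. With each array centred on its median, markers of blood had a median of 0.87 over 5 probes (from 0.36 to 1.30) in C57 pool 1. In the same pool the centred medians were -0.11 for hindbrain markers, -0.08 for spinal cord, -0.13 for mesenchyme and limb, and 0.08 for endothelium. The part of these tissues in the Hoxd8 value was not tested.

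Among numbers 9 to 13, genes of the trunk, limbs, kidney and tail, the 6 tested probes had a median of 0.06, with 3 positive and 3 negative. Hoxa9, known for its role in blood progenitors, had -0.02 and 0.46 in C57 and -0.37, 1.10 and 0.71 in MF1. MF1 pools 2 and 3 were the highest and MF1 pool 1 the lowest, and the mean was 0.35 ± 0.25, or 0.20 without MF1 pool 2 and 0.56 without MF1 pool 1. Hoxb9, a gene of the thoracic trunk, had -0.55 and 0.30 in C57 and -1.32 and 0.32 in MF1 pools 2 and 3. Its mean, -0.31 ± 0.34, ran from -0.72 without MF1 pool 3 to 0.10 without MF1 pool 2. Hoxa11, which with its paralogue Hoxd11 patterns the forearm and the kidney, had -0.17 and 0.50 in C57 and -0.11, 0.23 and 0.17 in MF1. The mean was 0.13 ± 0.17, close to the median of all probes. Hoxb13, of the tail and the prostate, had -0.16 and 0.30 in C57 and -0.02, 0.02 and -0.31 in MF1, with a mean of -0.01 ± 0.15. It varied least between pools of all tested Hox probes.

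Hoxd11 had the largest positive mean. It stood at -0.06 and 0.45 in C57 and at 0.07, 0.71 and 1.48 in MF1. The MF1 values spread widely, and MF1 pool 1 lay between the C57 pools. The mean was 0.47 ± 0.24 (SE, n = 5 pools; limma adjusted p = 0.983), 1.39-fold, and 0.29 without MF1 pool 3. With caudal RNA in Cy5 the 5 arrays gave -0.14, 0.71, 0.25, 0.90 and 1.55, and on the exchanged arrays of the same pools 0.02, 0.19, -0.11, 0.51 and 1.41. The dye orders thus ranked the pools alike at the top, with MF1 pool 3 highest in both. With each array centred, Hoxd11 was positive in all 5 pools, at 0.12, 0.08, 0.26, 0.62 and 1.36. Hoxa11 was as well, at 0.01, 0.13, 0.08, 0.14 and 0.05. These were 2 of 11 fully measured Hox probes. Of all fully measured probes, 8.4% had 1 sign throughout the centred pools, and 5.84% were positive throughout.

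Hoxc12, a gene of the far end of the Hoxc cluster, had the lowest mean and the largest gap between dye orders among the 15 tested probes. Among the untested, Hoxc13 had a larger gap, 5.19. Hoxc12 had -3.20 and -0.49 in C57 pools 1 and 2 and 0.11 and -1.17 in MF1 pools 2 and 3. Its mean was -1.19 ± 0.51 (SE, n = 4 pools, limma adjusted p = 0.983). With caudal RNA in Cy5 the arrays gave -5.24, -1.57, -1.75, -2.47 and -5.15, all negative. With rostral RNA in Cy5 they gave -1.16, 0.58, 2.69 and 2.81, of which 1 was negative. The mean of both strains was -3.26 from the first set alone and 1.23 from the second, so its sign followed the dye order. Without C57 pool 1 the mean was -0.51, and without C57 pool 2 it was -1.86.

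**Figure D4:**
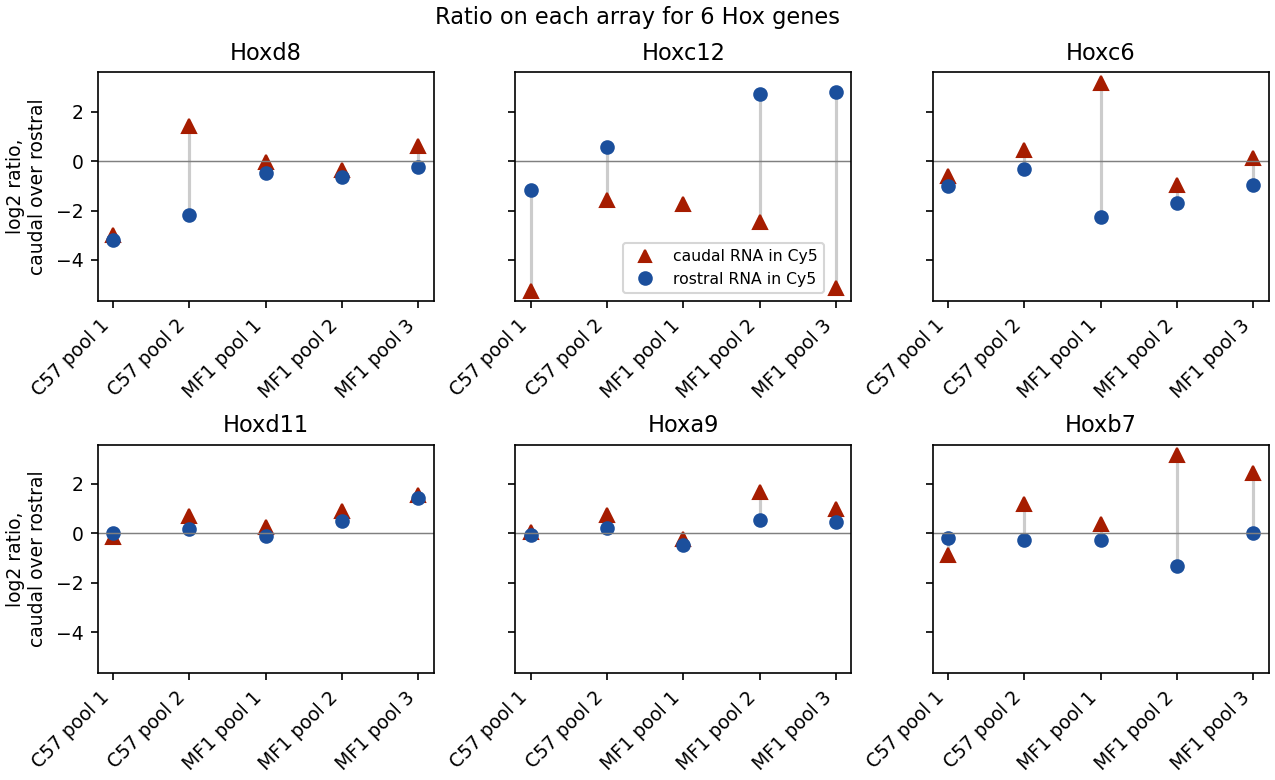
Log2 ratio of caudal over rostral RNA on each array for 6 Hox genes (Hoxd8, Hoxc12, Hoxc6, Hoxd11, Hoxa9 and Hoxb7), by pool; red triangles are arrays with caudal RNA in Cy5, blue circles those with rostral RNA in Cy5, and grey lines join the 2 arrays of a pool. The arrays of a pool lie close together for Hoxd11, and at -2.98 and -3.18 for Hoxd8 in C57 pool 1, but far apart for Hoxc12.

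The order of the dyes also mattered for other Hox genes. Hoxb7 had 3.17 and 2.44 in MF1 pools 2 and 3 with caudal RNA in Cy5, and -1.33 and 0.00 with rostral RNA in Cy5. Hoxc6 had 3.16 and -2.25 on the 2 arrays of MF1 pool 1. Over arrays with caudal RNA in Cy5 the mean of both strains was 0.35 for Hoxc6, and over arrays with rostral RNA in Cy5 it was -0.39 for Hoxb7, each the reverse of its overall sign. The 2 arrays of a pool differed by a median of 0.37 for the 15 Hox probes after centring, against 0.36 over all tested probes, so this gap was near that of other probes. Among the 15 it ranged from 0.11 for Hoxa2 to 4.74 for Hoxc12. The means of the 2 centred dye orders had opposite signs for 8 of the 15 (53.3%), against 54.3% of all tested probes. As deposited, without centring, they did for 11 of the 15 (73.3%), against 63.1%.

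The tested Hox probes varied more between pools than the typical probe. Their residual SD between pools within a strain had a median of 0.61, against 0.43 over all tested probes, and 10 of the 15 lay above that value. This was not particular to Hox probes. The gene and marker lists described below had medians from 0.23 (neocortical markers) to 0.69 (retinoic acid control), with hindbrain markers at 0.65. It was smallest for Hoxb13 at 0.24, Hoxa11 at 0.31, Hoxa3 at 0.35 and Hoxb5 at 0.35, and largest for Hoxd8 at 1.14 and Hoxc12 at 1.5. The probes with the most negative means were therefore also those with the largest spread. When each pool was left out in turn, the mean kept its sign for 8 of the 15 (Hoxa3, Hoxa9, Hoxb7, Hoxc5, Hoxc6, Hoxc12, Hoxd8 and Hoxd11). The share of all tested probes that did so was not counted, so this is a description only.

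**Figure D5:**
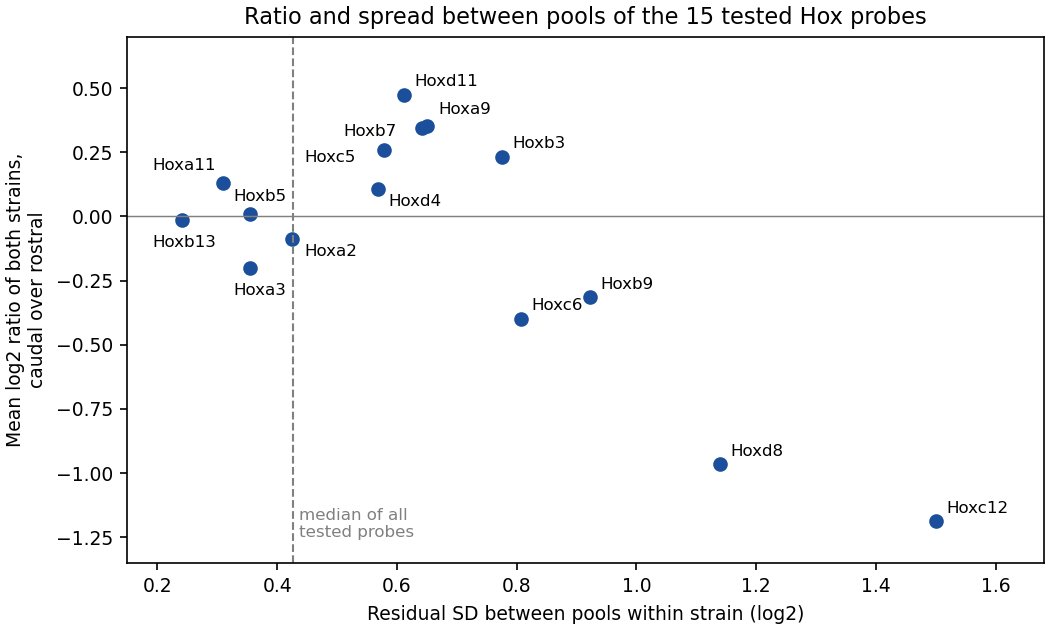
Mean log2 ratio of both strains (y axis) against the residual SD between pools within strain (x axis) for the 15 tested Hox probes; the dashed line is the median SD of all tested probes, 0.43. Hoxd8 and Hoxc12 have the lowest means and the highest SDs, 1.14 and 1.5.

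Position in the clusters did not order the ratios. The Spearman correlation of paralogue number with the mean ratio was -0.016 over the 15 probes, which share pools and arrays. By cluster the medians were 0.02 for Hoxa, 0.01 for Hoxb, -0.40 for Hoxc and 0.11 for Hoxd, from 3 to 5 probes each. The Hoxc median is the value of Hoxc6, one of only 3 probes, beside 0.26 for Hoxc5 and -1.19 for Hoxc12.

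Each strain was then examined by itself. In C57 the Hox median was 0.07, against 0.13 over all tested probes. There 10 Hox probes were positive and 5 negative, where 9217 of all 11855 tested probes were positive. Hoxd8 stood at -1.73 ± 0.62 (SE from 2 pools and a variance fitted over both strains; limma adjusted p = 1). It was the 1 Hox probe with an unadjusted p under 0.05, which 1.81% of all tested probes had, 0.363% in the negative direction. Hoxc12 stood at -1.85 ± 0.73. The other 13 C57 ratios lay between -0.37 and 0.22. In MF1 the Hox median was 0.00, against 0.03 over all tested probes. Hoxd11 stood at 0.75 ± 0.31 (SE, n = 3 pools; limma adjusted p = 0.995), Hoxb7 at 0.73 ± 0.32 and Hoxa3 at -0.62 ± 0.28 from 2 pools. In MF1, 0 Hox probes had an unadjusted p under 0.05, against 3.96% of all tested probes. With the arrays centred, 3 did, Hoxb7, Hoxd11 and Hoxa3, at limma adjusted p values of 0.685, 0.69 and 0.733, and so did 6.56% of all tested probes. In each strain 0 Hox probes passed an adjusted p of 0.05, as did 0% of all tested probes.

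The difference between the strains was tested directly as MF1 minus C57. The largest differences were 1.53 ± 0.80 for Hoxd8, 1.32 ± 1.03 for Hoxc12, -0.84 ± 0.39 for Hoxa3 and 0.77 ± 0.50 for Hoxb7. For 0 of the 15 Hox probes was the unadjusted limma p under 0.05, against 1.88% of all tested probes, and 0 passed after adjustment (smallest adjusted p 0.999), as did 0% of all tested probes. The Hoxd8 difference rested on C57 pool 1, as C57 pool 2 and the MF1 pools overlapped.

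The 19 untested Hox probes were measured mainly in C57. Of these, 17 had both dye orders in both C57 pools, 10 had them in no MF1 pool and 8 in 1 MF1 pool. Their C57 pool values ran from -1.72 for Hoxc4 in pool 1 to 2.03 for Hoxa10 in pool 2. Hoxa10, a gene of the lumbar trunk and uterus, had 0.19 and 2.03 in the C57 pools and -1.15 in MF1 pool 1, and its pools thus disagreed in sign. Hoxa6 had -1.45 and 0.41 in C57 and -1.09 in MF1 pool 1, with 1.61 and -3.79 on the 2 arrays of that MF1 pool. Hoxb6 had -1.38 and 0.90 in C57. Pool 1 was negative and pool 2 positive for 27 of the 32 Hox probes measured in both C57 pools (84.4%, against 65.5% of all probes measured there). Hoxb4, studied for its action in blood stem cells, had -0.65 and 0.58 in C57. Its MF1 ratios came from unmatched arrays, at 2.86, 4.92 and -1.10. Hoxc13, needed for hair and nails, had -1.96 and 4.46 on the 2 arrays of C57 pool 1, in opposite directions.

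Genes of the digits and the tail end of the Hoxd cluster were also incomplete. Hoxd13, which patterns the digits, had 0.22 and 0.36 in C57 and 1.21 in MF1 pool 3, the last from arrays at 2.46 and -0.04. Hoxd12 had -0.48, 0.44 and -0.55 in C57 pools 1 and 2 and MF1 pool 1. Hoxd10, of the lumbar spinal cord, had -0.09 and 0.55 in C57 and 1.0 in MF1 pool 1, where the arrays gave 3.32 and -1.32. Hoxd9 had -0.36 and 0.51 in C57. Hoxa13, which acts with Hoxd13 in the digits, had -1.14 and 0.49 in C57. For these 5 genes the values of C57 pool 2 lay between 0.36 and 0.55, near that pool's median of 0.36.

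Of the remaining untested genes, Hoxa4 missed the filter by 1 array of C57 pool 1. It had 0.28 in C57 pool 2 and -0.18, -0.39 and -0.18 in the MF1 pools, all negative there. Hoxa5, needed for the lung and the neck vertebrae, had -0.32 and 0.42 in C57 and -0.89 in MF1 pool 1. Hoxd3 had -0.81 and 0.61 in C57 and -0.61 in MF1 pool 3. Hoxd1 had -0.22 and 0.64 in C57. Hoxa7 had -0.43 and 0.45, Hoxc9 -0.52 and 0.36, Hoxc10 0.74 and 0.31, and the second Hoxb3 probe -0.16 and 0.43. Hoxc10 was the exception among the 32 Hox probes with both C57 pools, of which 31 had the lower value in pool 1 (96.9%, against 89.3% of all probes measured there).

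Genes that act with or upon the Hox genes were listed as well. The TALE homeodomain cofactors, Pbx, Meis and Pknox proteins that bind DNA together with Hox proteins, had 4 tested probes, 2 on each side, with a median of -0.07. Pbx3 had a ratio of 0.22 ± 0.19 and Meis3 -0.24 ± 0.22. Polycomb genes, which keep Hox clusters silent, had 24 tested probes, 15 positive and 9 negative, with a median of 0.04. The histone-binding subunit Rbbp4 stood at 0.33 ± 0.17 and Pcgf6 at 0.20 ± 0.13. Trithorax genes, which keep Hox genes active, had 9 tested probes, of which 6 were positive and 3 negative (median 0.04), with Kmt2c at 0.55 ± 0.38 (0.22 ± 0.20 at a second probe) and Dpy30 at 0.19 ± 0.14. In these 3 lists 0 probes had an unadjusted p under 0.05, against 3.1% of all tested probes. Of all 11855 tested probes 8223 had a positive ratio.

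For retinoic acid, which switches on the Hox genes of the hindbrain, 4 tested probes had a median of 0.11. Aldh1a2, the enzyme that makes it, had a ratio of 0.21 ± 0.16, and the receptor Rarg 0.19 ± 0.29 (0.02 ± 0.81 at a second probe). Of the ParaHox and related homeobox genes 3 of 11 probes were tested, with a median of 0.08, Cdx1 at -0.70 ± 0.43 and Gsx2 at 0.16 ± 0.22. Genes beside the clusters on the chromosome had 11 tested probes, 6 positive and 5 negative, and a median of 0.22, with Chn1 at 0.27 ± 0.14 and Lnpk at 0.27 ± 0.14 at the probes of smallest p. A second probe of each was negative, at -0.67 ± 0.56 for Chn1 and -0.05 ± 0.19 for Lnpk. In limma 0 probes of these lists passed an adjusted p of 0.05. At an unadjusted p under 0.05 there were 0 as well, against 3.1% of all tested probes.

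Markers of tissues that do express Hox genes, or could be carried with the cortex, were listed beside them. Hindbrain markers had 5 tested probes with a median of 0.12, and En2 stood at 0.23 ± 0.22 and Lmx1b at -0.41 ± 0.47. Spinal cord markers had a median of 0.07 over 5 probes, with Pax8 at -0.65 ± 0.39 and Isl1 at -0.29 ± 0.23. Mesenchyme and limb markers had a median of 0.02 over 5 probes, with Col3a1 at -0.44 ± 0.29 and Twist1 at -0.14 ± 0.24. Blood markers had 5 positive probes of 5 and a median of 0.47, where 8223 of all 11855 tested probes were positive. Of the blood probes 2, Hbb-y at 0.52 ± 0.15 and Hbb-bh1 at 0.51 ± 0.16, had an unadjusted limma p under 0.05 (adjusted p = 0.983). Endothelial markers had a median of 0.02 over 4 probes, with Kdr at 0.13 ± 0.16 and Esam at 1.04 ± 0.33, the 1 of these probes at an unadjusted p under 0.05. By limma 0 probes of the marker lists passed an adjusted p of 0.05, as did 0% of all tested probes. An unadjusted p under 0.05 was found for 3.1% of all tested probes. Neocortical markers had a median of 0.10 over 10 probes, with Lhx2 at 0.32 ± 0.15 and Otx1 at 0.27 ± 0.19.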

How the data were processed

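The deposited values are log2 ratios of both channels, a unit read from the values themselves. Scanner, background correction, normalization and probe sequences: not given in the sources used here. Control spots (232), null values and 436 values at the ceiling of 16.61 were left out. Arrays were turned to caudal over rostral by their dye labels and not centred, and the arrays of a pool were averaged. Of 21766 probes 16632 had 1 gene symbol, 139 several and 4995 none.

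The 11855 tested probes were fitted in limma 3.58.1 (R 4.3.3, lmFit and eBayes) as pool means with a term for each strain. Adjustment was by Benjamini-Hochberg over all tested probes at 0.05, two-sided. Errors are moderated SEs, and p-values measure the spread between these pools, whose number limits the precision. The fit was tested on simulated data. Cross-hybridisation between paralogues was not tested.

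The members, gene lists and naming rule were chosen with earlier results of these data known. By the rule, array values are given for members with an unadjusted p under 0.05 in any contrast, for those with 1 sign in all 5 pools (none as deposited) and for the 3 of smallest p in each direction. Of each list the 2 probes of smallest p are named. Alternatives changed centring, scaling, the probe filter, dye orders, ceiling values, probe averaging and the variance model, left out each pool, or used the pool number as a block. Figures used matplotlib 3.10.9 and Python 3.11.15.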

Additional observations from a re-analysis of the deposited data

Results flagged for a closer look

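With each array centred on its median, Hoxa3 was positive in both C57 pools (0.10 and 0.15) and negative in both measured MF1 pools (-0.62 and -0.52). The difference between the strains was -0.70 ± 0.27 (SE, 4 pools; limma adjusted p = 0.999). As deposited, without centring, C57 pool 1 was negative as well, at -0.08. The share of all probes with such a split between the strains was not counted. The 2 arrays of an MF1 pool were unlike, with -1.55 and -0.06 in pool 1 and 1.30 and -2.16 in pool 2.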

How the results depend on the processing

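Over the 19 alternatives 0 Hox probes passed an adjusted p of 0.05 in any of the 4 contrasts, and the smallest adjusted p was 0.147, for Hoxd11 in MF1 without MF1 pool 1. The median of the tested Hox probes for both strains stayed within the spread of the pool medians (SD 0.328), from -0.131 to 0.158 when single pools were left out; on arrays of only 1 dye order it was 0.277 (caudal in Cy5) and -0.277, against 0.248 and -0.111 over all probes. Centring moved the median of all tested probes from 0.09 to 0.04.

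The number of Hox probes at an unadjusted p under 0.05 moved, and in some alternatives so did the number tested. It was 15 as reported, 24 with 1 pool per strain and 11 with all 5 pools. With a single orientation it was 27, on caudal-in-Cy5 arrays 20 and on rostral-in-Cy5 arrays 21. The counts that follow are of these probes. For both strains (0 as reported) it was 1 with probes of all 5 pools, a single dye orientation kept, caudal-in-Cy5 arrays, scaled arrays or 10 arrays with a dye term, 2 with centring, a filter of 1 pool per strain or centring with 10 arrays, 3 with centring and a single orientation, and 4 with rostral-in-Cy5 arrays or the replicate block. For C57 (1 as reported) it was 0 with a single orientation and 2 with centring (also combined with either choice), 1 pool per strain, caudal-in-Cy5 or scaled arrays. For MF1 (0 as reported) it was 1 with 1 pool per strain, all 5 pools or 10 arrays (centred or not), 2 with a single orientation, 3 with centring or caudal-in-Cy5 arrays, 4 with rostral-in-Cy5 arrays or the replicate block, and 6 with centring and a single orientation. For MF1 minus C57 (0 as reported) it was 3 with rostral-in-Cy5 arrays and 2 with the replicate block or with centring and a single orientation. Leaving out single pools gave 0 to 5, 0 to 2, 0 to 5 and 0 to 2 in these contrasts; a lone C57 pool was then assumed to vary like the MF1 pools. For both strains it was 5 without MF1 pool 1 (Hoxa9, Hoxc6, Hoxc12, Hoxd8 and Hoxd11) and 2 without C57 pool 2 or MF1 pool 3; for C57, 0 without C57 pool 1 and 2 without any other pool; for MF1, 5 without MF1 pool 1 and 1 without MF1 pool 3; for the difference, 2 without C57 pool 2 and 1 without MF1 pool 1. The share of all probes moved as well: for both strains from 3.1% to 12.2% without MF1 pool 1, 9.61% on rostral-in-Cy5 arrays and 8.56% with the replicate block, and for MF1 from 3.96% to 16.3%, 13.7% and 8.62%. For MF1 the share was also 6.56% with centring, 9.24% on caudal-in-Cy5 arrays and 7.81% with centring and a single orientation. Apart from leaving out pools, the share over the alternatives lay between 1.32% and 5.4% for C57. For the difference it lay between 1.37% and 5.45%. Why the counts moved was not tested. Centring combined with another choice was added after seeing the data.

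Of the 6 genes named by the rule, 3 reversed: Hoxc12 to 1.23 and Hoxb7 to -0.387 on rostral-in-Cy5 arrays, and Hoxc6 to 0.353 on caudal-in-Cy5 arrays. Hoxd8, Hoxd11 and Hoxa9 kept their sign in all 19 alternatives. Whether the pool numbers pair the strains could not be decided. Deviations of same-numbered pools correlated at 0.149 for number 1 and -0.0224 for number 2 over 8924 probes. The 2 C57 pools deviate by equal and opposite amounts, so the values of the pairings, from -0.187 to 0.187, depend on each other. The replicate block changed no adjusted Hox call, but there were 0 without it. Missing ratios, mainly on MF1 arrays, limit what can be said of the 19 untested Hox probes. Hoxa4 lacked only 1 array, of C57 pool 1, and Hoxc13 also lacked both arrays of C57 pool 2.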

Other observations

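Long non-coding transcripts of the Hox clusters had probes of their own and were no members. Hoxa11os, transcribed opposite Hoxa11, had a ratio on 4 of the 10 arrays, with 0.37 in C57 pool 2. Hoxd3os1 was measured on 5 arrays, with -0.48 and 1.32 in the C57 pools. Hoxaas3 was measured on 8 arrays, with -0.04 and 0.79 in C57 and -0.80 in MF1 pool 1. None of the 3 met the filter for testing. Both transcripts measured in the 2 C57 pools had the higher ratio in pool 2. The same held for 31 of the 32 Hox probes measured in both C57 pools, and for 89.3% of all probes measured there.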
